A study of Mus musculus with 9 samples.

Results

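The genes of antigen presentation by the major histocompatibility complex (MHC) were followed in mouse hearts before and after birth. Their 10 members were chosen by symbol from the 48820 genes of the deposited expression table: *B2m*, *H2-K1*, *H2-D1*, *Tap1*, *Tap2*, *Cd74*, *H2-Aa*, *H2-Ab1*, *H2-Eb1* and *Ciita*. RNA-seq was done on hearts of untreated wild-type C57BL/6J mice, all labelled male, at 3 stages with 3 hearts each. The stages were embryonic day 18.5 (E18.5d), postnatal day 1 (P1d) and postnatal day 7 (P7d). The series compares expression between embryonic and postnatal hearts. Levels are in FPKM, fragments per kilobase of transcript scaled to the mapped fragments of the heart, so they can be set side by side between genes.

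MHC class I molecules stand on nearly all nucleated cells and show peptides from inside the cell to cytotoxic T cells. MHC class II molecules are made mainly by dendritic cells, B cells and macrophages and show peptides from taken-up proteins to helper T cells. In the heart, class I RNA can come from any cell type, while class II is known mostly from resident immune cells, and both can be raised by interferon-gamma.

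The table holds no counts. From the size of its steps at low values, the hearts had about 25250000 to 46500000 fragments, and 89.1 to 92.9% of the values used were whole fragments within 0.2. At a fixed depth and length offset, 40% would be whole within that limit by chance. Depth and offset were chosen here for a high share, so 40% is not the matching chance level. A length offset of 300 to 320 bases was used. The median depth was 31750000 fragments in E18.5d hearts, 28500000 in P1d hearts and 40250000 in P7d hearts. On that scale, *H2-D1* rested on 1094 to 3016 fragments in a heart and *B2m* on 1173 to 1981. *Cd74* rested on 81 to 317 fragments and *H2-Eb1* on 38 to 197, so single values of the class II genes carried more counting error. *Ciita* had only 3 to 63 fragments.

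Some hearts went against their label or stood apart. All were labelled male, yet *Xist*, the RNA of the inactive X chromosome, was at 82.6 FPKM in E18.5d replicate 1, 97.0 in E18.5d replicate 3, 58.0 in P7d replicate 2 and 70.0 in P7d replicate 3. *Eif2s3y*, *Uty*, *Ddx3y* and *Kdm5d*, all on the Y chromosome, were listed at 0 in these 4 hearts, and in the other 5 *Xist* was at most 0.11 FPKM. No P1d heart was among the 4, so *Xist* status was not balanced over the stages.

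The 9 lung epithelium genes summed to 493 FPKM in P1d replicate 1, 252 in E18.5d replicate 2 and 91.1 in E18.5d replicate 1, against 0.33 to 3.46 in the other hearts. The airway secretory genes *Scgb3a1* and *Scgb3a2* made up most of it, with *Scgb3a1* at up to 270.3 FPKM, while the alveolar gene *Sftpc* was at most 0.44 FPKM. The 8 cardiomyocyte genes, by contrast, summed to 18567 FPKM or more in every heart. The calls of the members and the counts of the pathway and marker lists are given below with and without the 4 *Xist* hearts, which leaves 1 heart each at E18.5d and P7d, and the 3 airway hearts, which leaves 1 heart at E18.5d. A stage left with 1 heart was taken to vary like the others.

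Of the members, 7 lie on chromosome 17 within chr17:33996017-35267499 of GRCm38, the mouse H-2 complex. *B2m* is on chromosome 2 (chr2:122147686-122153083) and *Ciita* on chromosome 16 (chr16:10480059-10528418). *H2-K1* and *H2-D1* stand toward opposite ends of this stretch, and *Tap1*, *Tap2*, *H2-Aa*, *H2-Ab1* and *H2-Eb1* lie between them. *Cd74* lies outside the complex, on another chromosome. *B2m* was the most abundant member in every stage, followed by *H2-D1* and *H2-K1*, and the hearts of these 3 genes did not overlap with each other at any stage. The other 7 were far lower. At E18.5d neighbouring genes from *Cd74* down to *H2-Aa* overlapped in rank, whereas at P7d *Cd74*, *Tap2* and *Tap1* were separate from each other and *H2-Eb1*, *H2-Aa* and *H2-Ab1* overlapped. *Ciita* was lowest throughout.

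*B2m* encodes beta-2-microglobulin, the light chain that all class I molecules need to reach the cell surface. In order of replicate number, it was at 103, 95.6 and 91.3 FPKM in E18.5d hearts, 76.2, 107 and 86.6 in P1d hearts and 67.7, 79.4 and 71.0 in P7d hearts. All P7d hearts were below all E18.5d hearts, while the P1d hearts spanned both. P7d hearts had 75.4% of the E18.5d mean. On the scale log2(FPKM + 1), which understates changes of low genes, *B2m* was lower by a log2 change of -0.40 ± 0.12 (SE) at P7d against E18.5d (limma, adjusted p = 0.0164). The median of all 13618 genes tested was -0.17 in that comparison, and relative to it *B2m* was at -0.23. The call was lost with median of ratios scaling (-0.22, adjusted p = 0.152) and quantile normalization (-0.27, adjusted p = 0.0585). It was also lost without E18.5d replicate 1 (adjusted p = 0.0576), without P7d replicate 1 (0.0580), without the 3 airway hearts (-0.33, 0.154) and without the 4 *Xist* hearts (-0.49, 0.294), in a range of adjusted p of 0.00162 to 0.294.

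The step from P1d to P7d in *B2m* missed the threshold (log2 change -0.29, adjusted p = 0.0650). It passed without P1d replicate 1 (-0.40, adjusted p = 0.0176) and without the 3 airway hearts (-0.40, 0.0465). At P1d against E18.5d the log2 change was -0.11 (adjusted p = 0.458). With all columns brought to an equal sum it was -0.28 (adjusted p = 0.0173), whereas it was 0.08 (0.746) without the 3 airway hearts. P1d replicate 2 had the largest sum of FPKM, 1794160, of which 62.3% came from 5 small structural RNA genes.

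The heavy chains, which hold the peptide, moved otherwise. *H2-D1* was at 21.2, 16.7 and 15.1 FPKM at E18.5d, 32.8, 42.7 and 32.5 at P1d and 28.8, 32.9 and 28.5 at P7d. *H2-K1* was at 13.8, 13.6 and 12.6 FPKM at E18.5d, 18.8, 26.3 and 17.6 at P1d and 19.1, 19.3 and 17.5 at P7d. For both genes every postnatal heart was above every E18.5d heart, P1d replicate 2 was the highest heart, and P1d and P7d overlapped.

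*H2-D1* rose to 2.04 times the E18.5d mean at P1d, a log2 change of 0.99 ± 0.14 (limma, adjusted p = 0.000368), and stood at 1.70 times at P7d (0.75 ± 0.14, adjusted p = 0.00167). Its rise at P1d passed the threshold under every alternative run, with adjusted p of 0.000153 to 0.0467. *H2-K1* rose to 1.56 times at P1d (0.59 ± 0.13, adjusted p = 0.00471) and was at 1.40 times at P7d (0.45 ± 0.13, adjusted p = 0.0158). Relative to the median of all genes, the P7d changes were 0.92 for *H2-D1* and 0.63 for *H2-K1*.

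The *H2-K1* call at P7d was lost without E18.5d replicate 3 (adjusted p = 0.0527) and without P7d replicate 2 (0.0519), in a range of 0.000622 to 0.390 over the alternatives. Without the 3 airway hearts the *H2-K1* change was 0.73 at P1d (adjusted p = 0.0703) and 0.53 at P7d (0.117). Without the 4 *Xist* hearts it was 0.56 (0.203) and 0.46 (0.390), and *H2-D1* at P7d was at 0.75 (0.146). From P1d to P7d neither gene passed, with log2 changes of -0.24 for *H2-D1* (adjusted p = 0.173) and -0.14 for *H2-K1* (0.414).

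A ratio within a heart does not depend on how hearts are scaled. *H2-K1* plus *H2-D1* over *B2m* was 0.341, 0.316 and 0.303 in E18.5d hearts, 0.676, 0.643 and 0.578 in P1d hearts and 0.708, 0.657 and 0.647 in P7d hearts. The stage means were 0.320 ± 0.0193, 0.632 ± 0.050 and 0.670 ± 0.0327 (SD, n = 3). All postnatal hearts were above all E18.5d hearts, including the *Xist* and airway hearts on either side, and P1d and P7d overlapped. This ratio was not tested. The ratio of *H2-D1* to *H2-K1* was 1.32 ± 0.182 in E18.5d hearts, 1.74 ± 0.113 in P1d hearts and 1.61 ± 0.101 in P7d hearts. Here the E18.5d and P7d hearts overlapped.

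The heavy chain genes are near copies of others in the same family. Of the 50-base stretches of its annotated transcripts, *H2-D1* shared 12.8% and *H2-K1* 9.63% with another gene, among them each other and *H2-Q7*. How fragments matching several genes were counted is not given in the sources used here, so the split between *H2-K1*, *H2-D1* and their relatives is uncertain. *B2m*, *Cd74*, *H2-Ab1*, *H2-Eb1* and *Ciita* shared 0%, and *Tap1*, *Tap2* and *H2-Aa* under 1%.

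**Figure D1:**
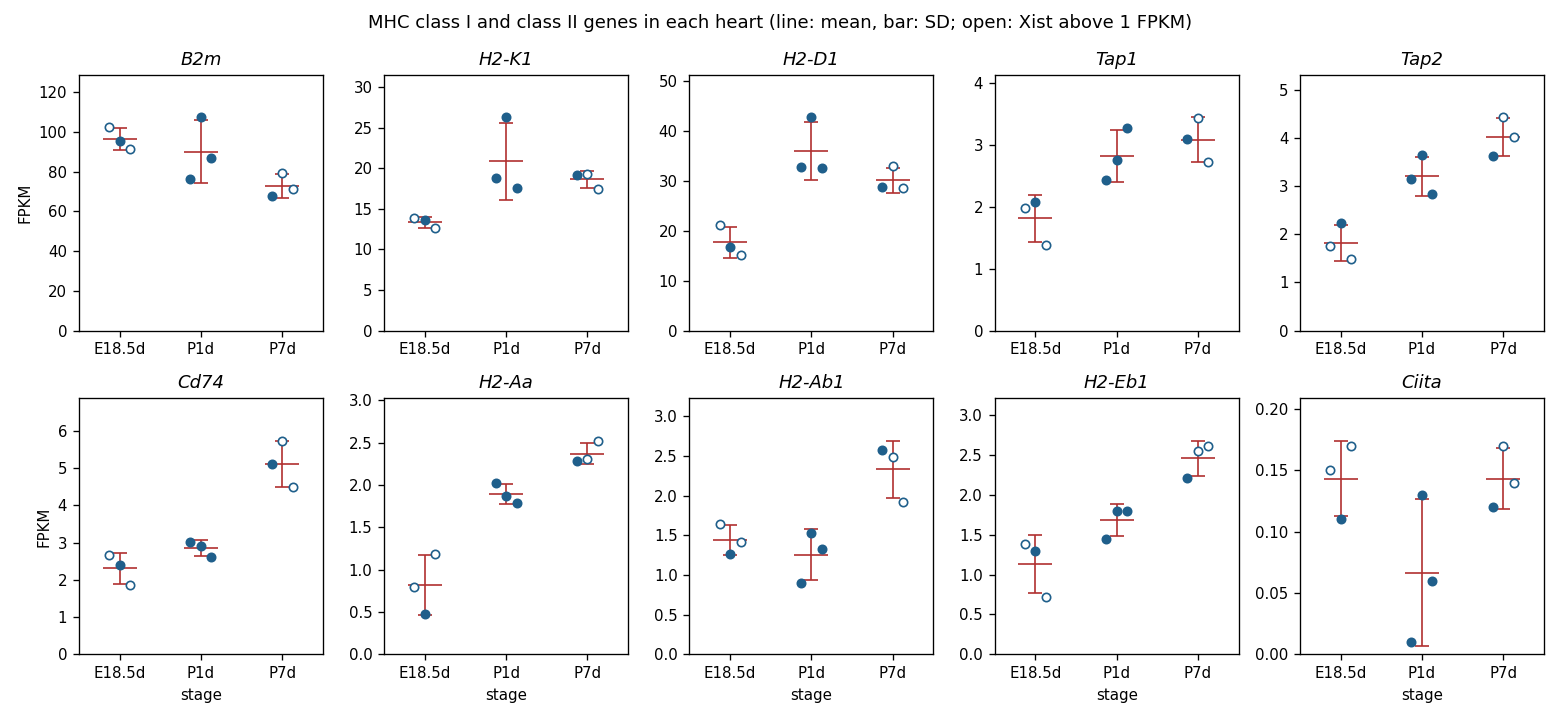
FPKM of each of the 10 members (vertical axis, from 0) by stage (horizontal axis), 1 point per heart, with the mean as a line and the SD as a bar, n = 3; open points are the 4 hearts with *Xist* above 1 FPKM. *H2-D1* and *H2-K1* are higher in all P1d and P7d hearts than in all E18.5d hearts, *B2m* falls to 75.4% of its E18.5d mean at P7d on the deposited scale (a call lost with median of ratios and quantile scaling), and *Cd74* reaches 4.48 to 5.72 FPKM only at P7d.

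*Tap1* and *Tap2* form the transporter that carries peptides into the endoplasmic reticulum for loading onto class I. *Tap1* was at 1.98, 2.08 and 1.38 FPKM at E18.5d, 2.43, 2.76 and 3.27 at P1d and 3.09, 3.44 and 2.72 at P7d. *Tap2* was at 1.76, 2.23 and 1.49 FPKM at E18.5d, 3.15, 3.64 and 2.84 at P1d and 3.63, 4.43 and 4.02 at P7d. All postnatal hearts were above all E18.5d hearts for both genes, and P1d and P7d overlapped.

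*Tap2* rose to 1.76 times the E18.5d mean at P1d (log2 change 0.58 ± 0.12, limma, adjusted p = 0.00400) and to 2.20 times at P7d (0.84 ± 0.12, adjusted p = 0.000487). *Tap1* rose to 1.56 times at P1d (0.44 ± 0.13, adjusted p = 0.0210) and to 1.70 times at P7d (0.54 ± 0.13, adjusted p = 0.00771). The P7d changes relative to the median of all genes were 1.01 and 0.72. The *Tap1* call at P1d was lost with no filter (adjusted p = 0.0526), equal column sums (0.28, 0.0824), *Xist* as a covariate (0.37, 0.121) and without the 4 *Xist* hearts (0.30, 0.337). It was also lost without E18.5d replicate 3 (0.33, adjusted p = 0.0716) and without P1d replicate 3 (0.36, 0.0645), in a range of 0.0107 to 0.337, and kept without the 3 airway hearts, with a change of 0.75. Without the 4 *Xist* hearts *Tap2* lost its call at P1d (0.38, adjusted p = 0.228), and at P7d *Tap2* was at 0.52 (0.224) and *Tap1* at 0.41 (0.336). Between P1d and P7d neither passed, with log2 changes of 0.26 for *Tap2* (adjusted p = 0.115) and 0.10 for *Tap1* (0.574), although *Tap2* passed with median of ratios scaling (0.35, 0.0424). The ratio of *Tap2* to *Tap1* was 1.01 ± 0.108, 1.16 ± 0.254 and 1.31 ± 0.153 (SD, n = 3) from E18.5d to P7d, and P7d hearts were above E18.5d hearts while P1d hearts spanned both.

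Class II molecules pair an alpha and a beta chain and are escorted by the invariant chain, encoded by *Cd74*, until peptide is loaded. *Cd74* was at 2.67, 2.40 and 1.85 FPKM at E18.5d, 3.02, 2.91 and 2.60 at P1d and 5.11, 5.72 and 4.48 at P7d. Its P7d hearts were above all others, while E18.5d and P1d overlapped. *Cd74* at P7d was 1.79 times its P1d mean (log2 change 0.66 ± 0.12, limma, adjusted p = 0.00183) and 2.21 times its E18.5d mean (0.89 ± 0.12, adjusted p = 0.000288). Both calls were lost only without the 4 *Xist* hearts, where the changes were 0.67 (adjusted p = 0.0910) and 0.85 (0.0960). At P1d against E18.5d the log2 change was 0.22 (adjusted p = 0.149).

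*H2-Aa*, the alpha chain of the I-A molecule, was at 0.80, 0.48 and 1.19 FPKM at E18.5d, 2.02, 1.87 and 1.79 at P1d and 2.29, 2.31 and 2.52 at P7d. *H2-Ab1*, its beta chain, was at 1.64, 1.26 and 1.42 FPKM at E18.5d, 0.90, 1.53 and 1.33 at P1d and 2.58, 2.49 and 1.92 at P7d. The stages did not overlap for *H2-Aa*. For *H2-Ab1* only the P7d hearts stood apart, above the others. *H2-Eb1*, the beta chain of the I-E molecule, was at 1.38, 1.30 and 0.72 FPKM at E18.5d, 1.45, 1.80 and 1.80 at P1d and 2.21, 2.55 and 2.61 at P7d, again with no overlap between stages.

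*H2-Aa* rose to 2.30 times the E18.5d mean at P1d (log2 change 0.68 ± 0.14, limma, adjusted p = 0.00352) and to 2.88 times at P7d (0.91 ± 0.14, adjusted p = 0.000687). *H2-Ab1* rose between P1d and P7d, by 1.86 times (0.57 ± 0.14, adjusted p = 0.00927), and was at 1.62 times its E18.5d mean at P7d (0.45 ± 0.14, adjusted p = 0.0243). *H2-Eb1* passed only at P7d against E18.5d, at 2.17 times (0.71 ± 0.14, adjusted p = 0.00263). Its steps of 0.34 to P1d (adjusted p = 0.0718) and 0.37 from P1d to P7d (0.0591) were just short of the threshold. Median of ratios brought both past it (0.0470 and 0.0274), as did quantile normalization (0.0424 and 0.0325). The first passed without the 3 airway hearts (0.70, 0.0305), and the second with equal column sums (0.39, 0.0402) and without E18.5d replicate 3 (0.37, 0.0233), in ranges of 0.0305 to 0.448 and 0.0233 to 0.395.

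With a pseudocount of 0.1 the *H2-Aa* change at P1d was 1.18 and that of *H2-Eb1* at P7d 1.10, both against E18.5d, and that of *H2-Ab1* from P1d to P7d 0.86, with the calls kept. The *H2-Aa* change at P7d against E18.5d was also larger with this pseudocount, and called. Relative to the median of all genes the P7d changes were 1.06 for *Cd74*, 1.08 for *H2-Aa*, 0.88 for *H2-Eb1* and 0.62 for *H2-Ab1*. The *H2-Ab1* call at P7d against E18.5d was the least stable. It was lost with no filter (adjusted p = 0.0511), without E18.5d replicate 2 (0.0819) or 3 (0.0588), and without P7d replicate 1 (0.0821) or 2 (0.0782). Without the 3 airway hearts *H2-Ab1* was at 0.45 in both comparisons (adjusted p = 0.0531 against P1d and 0.105 against E18.5d), and *H2-Aa* at P1d was at 0.37 (0.119). Without the 4 *Xist* hearts the P7d changes against E18.5d were 1.15 for *H2-Aa* (adjusted p = 0.0649), 0.66 for *H2-Ab1* (0.216) and 0.48 for *H2-Eb1* (0.245), and *H2-Ab1* against P1d was at 0.68 (0.150).

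The 4 class II genes together summed to 5.70 ± 0.694 FPKM in E18.5d hearts, 7.67 ± 0.384 in P1d hearts and 12.3 ± 0.773 in P7d hearts (SD, n = 3). On the deposited scale the stages did not overlap in this sum. Among the airway hearts, P1d replicate 1 had a sum of 7.39 FPKM against 7.52 and 8.11 in the others of its stage, and E18.5d replicates 1 and 2 had 6.49 and 5.44 against 5.18. The part of airway RNA in these sums was not tested. *B2m* over the class II sum was 17 ± 1.04 in E18.5d hearts, 11.7 ± 1.46 in P1d hearts and 5.93 ± 0.329 in P7d hearts, a ratio that again needs no scaling between hearts. Within class II, *Cd74* over the sum of the 3 chains was 0.681 ± 0.118, 0.593 ± 0.0863 and 0.712 ± 0.0719, with overlapping hearts. *H2-Aa* over *H2-Ab1* was 0.569 ± 0.239 in E18.5d hearts, 1.60 ± 0.558 in P1d hearts and 1.04 ± 0.235 in P7d hearts. In that ratio all E18.5d hearts were below the others, and P1d and P7d overlapped.

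*Ciita*, the master transactivator of class II genes, was at 0.15, 0.11 and 0.17 FPKM at E18.5d, 0.01, 0.13 and 0.06 at P1d and 0.12, 0.17 and 0.14 at P7d. The stages overlapped. It was the 1 member below the filter of a mean of 1 FPKM, and with no filter its log2 changes were -0.10 at P1d against E18.5d (limma, adjusted p = 0.148), 0.10 at P7d against P1d (0.156) and 0.00 at P7d against E18.5d. Its P1d mean was 46.5% of the E18.5d mean, on 3 to 33 fragments in a heart, and its P7d mean equal to that at E18.5d. No comparison of *Ciita* passed the threshold, on a scale that understates changes at such levels. *H2-Ea*, the alpha chain of I-E, which C57BL/6 mice are known not to express, was listed at 0 in all 9 hearts.

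Counted over the 9 members that passed the filter, 5 were higher and 0 lower at P1d against E18.5d, *H2-K1*, *H2-D1*, *Tap1*, *Tap2* and *H2-Aa*, where 46% of all genes tested were called, 18.4% higher and 27.6% lower. At an unadjusted p under 0.05, *H2-Eb1* was higher as well and again no member was lower. At P7d against P1d, 2 were higher, *Cd74* and *H2-Ab1*, and 0 lower, where 44.2% of all genes were called, 15.5% higher and 28.6% lower. There the unadjusted p was under 0.05 also for *H2-Eb1*, higher, and *B2m*, lower. At P7d against E18.5d, 8 were higher and *B2m* was lower, where 49.4% of all genes were called, 12.5% higher and 36.9% lower. The comparisons share hearts, so their counts are not independent.

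The median log2 changes of the 9 members were 0.44, 0.22 and 0.71, beside -0.06, -0.09 and -0.17 over all genes tested. Hearts did not overlap for 6 members higher at P1d against E18.5d (22.1% of all genes, 32.3% lower), 4 higher at P7d against P1d (19.3%, 34.3% lower) and 8 higher and 1 lower at P7d against E18.5d (16.9% and 45.6%). The split of all genes depended on scaling. As deposited, 1706 genes were higher and 5025 lower at P7d against E18.5d, but median of ratios gave 2905 and 2848, quantile normalization 2889 and 2937, and equal sums 1194 and 4273. At P1d against E18.5d, 2505 were higher and 3755 lower as deposited, 3154 and 3112 by median of ratios, 3206 and 3066 by quantile normalization and 1115 and 4514 by equal sums. For P7d against P1d the deposited scale gave 2112 higher and 3901 lower, median of ratios 2986 and 2700, quantile normalization 2879 and 2787, and equal sums 2126 and 1661.

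Without the 4 *Xist* hearts, 2 members were higher at P1d against E18.5d, *H2-D1* and *H2-Aa*, and 0 in the other comparisons (limma, with 2 and 3 at an unadjusted p under 0.05). All genes called fell there to 823, 179 and 194. With *Xist* as a covariate in all 9 hearts the counts of members higher were 4, 2 and 8, and *B2m* was lower at P7d against E18.5d as before. Of all genes, 1607, 1467 and 1631 were higher in that fit and 2893, 2438 and 4820 lower. Without the 3 airway hearts, which leaves 1 heart at E18.5d, the median log2 changes of the members were 0.70, 0.25 and 0.78. Those of all genes were -0.04, -0.09 and -0.15. *B2m* was then at -0.40 at P7d against P1d and -0.33 at P7d against E18.5d.

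Of 19 other genes for peptide supply, loading and interferon response, 17 were tested, and 4 were higher and 5 lower at P1d against E18.5d, with a median of 0.06, where 18.4% of all genes were higher and 27.6% lower. The loading chaperone tapasin, *Tapbp*, rose by 0.56 ± 0.09 (limma, adjusted p = 0.00120). The general chaperones *Calr* and *Canx* and the disulfide isomerase *Pdia3* fell, with log2 changes of -1.12 ± 0.06 (adjusted p = 2.19e-06), -0.96 ± 0.10 and -0.77 ± 0.07. *Jak1* and *Ifngr1*, a kinase and a receptor chain of interferon signalling, rose by 0.42 ± 0.06 and 0.27 ± 0.07.

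At P7d against P1d, 4 were higher and 4 lower, with a median of -0.06, beside 15.5% and 28.6% of all genes. *Ifngr2* rose by 0.55 ± 0.05, the immunoproteasome subunit *Psmb8* by 0.55 ± 0.18 and *Calr* by 0.48 ± 0.06. *Jak2*, *Jak1* and *Psme1* fell, with changes of -0.51 ± 0.07, -0.31 ± 0.06 and -0.28 ± 0.06. At P7d against E18.5d, 4 were higher and 6 lower, with a median of 0.10, beside 12.5% and 36.9% of all genes. *Psmb8*, which lies in the same complex as *Tap1*, was at 2.93, 2.32 and 1.82 FPKM at E18.5d and 5.69, 4.74 and 5.52 at P7d, a log2 change of 0.92 ± 0.18 (adjusted p = 0.00228). *Tapbp* and *Ifngr2* were higher as well, at 0.33 and 0.28. *Pdia3*, *Calr* and *Canx* were lower there, at -0.79, -0.64 and -0.60. *Nlrc5*, the transactivator of class I genes, was at 0.11 to 0.43 FPKM and below the filter.

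Of this list, *Calr* and *Pdia3* were among the genes called lower without the 4 *Xist* hearts at P1d against E18.5d, and 0 genes were called in the other comparisons (limma, with 3 and 5 at an unadjusted p under 0.05). In each comparison 5 were called without the 3 airway hearts. The calls of *Ifngr1* at P1d (log2 change 0.26 there), of *Psmb8* from P1d to P7d (0.45) and of *Ifngr2* at P7d against E18.5d (0.31) were then lost, while the other calls named above were not.

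Scaling moved some of these calls too. With equal sums the P1d calls of *Ifngr1* (0.10) and *Jak1* (0.24), the P7d against P1d calls of *Psme1* (-0.15) and *Jak1* (-0.18) and the P7d against E18.5d call of *Ifngr2* (0.23) were lost, and *Psme1* also lost its call with median of ratios (-0.17). *Jak1* from P1d to P7d was at -0.20 with median of ratios scaling and at -0.18 after quantile normalization, and at P7d against E18.5d *Tapbp* was at 0.50 with median of ratios and *Ifngr2* at 0.45 and 0.42 with these scalings, all called. *Ifngr1* at P1d was also lost with *Xist* as a covariate (0.25). The *Psmb8* call from P1d to P7d was lost with no filter, with *Xist* as a covariate (0.59) and without P1d replicate 1 (0.45) or 3 (0.44) or P7d replicate 1 (0.51) or 3 (0.52). That of *Tapbp* at P7d against E18.5d was lost without E18.5d replicate 3 (0.25) or P7d replicate 1 (0.31) or 2 (0.30).

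Of 17 other class I and class I-like heavy chains, 9 were tested, and 6 were higher and 0 lower at P1d against E18.5d, with a median of 0.86, where 18.4% of all genes were higher and 27.6% lower. The 3 that did not pass were *H2-T24*, *H2-Q4* and *Mr1*, at log2 changes of -0.16, 0.20 and 0.20. *H2-T23*, which encodes the non-classical molecule Qa-1, was at 3.65, 3.38 and 3.40 FPKM at E18.5d, 10.6, 14.1 and 9.05 at P1d and 6.81, 6.34 and 4.82 at P7d. *Cd1d1*, which presents lipids, was at 8.97, 9.46 and 8.51 FPKM at E18.5d, 16.7, 25.2 and 20.6 at P1d and 7.43, 7.55 and 7.10 at P7d. P1d hearts were above all other hearts for both.

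Their log2 changes at P1d against E18.5d were 1.43 ± 0.15 for *H2-T23* (limma, adjusted p = 9.14e-05) and 1.11 ± 0.12 for *Cd1d1*. *Hfe*, a regulator of iron uptake, rose by 1.10 ± 0.12. These 3 then fell from P1d to P7d, with changes of -1.37 ± 0.12 for *Cd1d1*, -0.80 ± 0.15 for *H2-T23* and -0.67 ± 0.12 for *Hfe*, whereas *H2-D1* and *H2-K1* did not pass in that step. *H2-Q4* rose by 0.37 ± 0.12 (adjusted p = 0.0332). In that step 1 of the 9 was higher and 3 were lower, with a median of -0.28, beside 15.5% and 28.6% of all genes. At P7d against E18.5d, 5 were higher and 0 lower, with a median of 0.43, beside 12.5% and 36.9% of all genes, with the largest changes in *Fcgrt*, the neonatal Fc receptor (0.67 ± 0.13), *H2-T23* (0.63 ± 0.15) and *H2-Q4* (0.58 ± 0.12). *H2-T3* and *H2-M2* were listed at 0 in all hearts. Only *H2-T23* at P1d against E18.5d was called without the 4 *Xist* hearts, and 0 in the other comparisons (limma, with 2 and 2 at an unadjusted p under 0.05). In the 3 comparisons 6, 3 and 2 were called without the 3 airway hearts, and of the calls named above those of *H2-Q4* from P1d to P7d (0.28) and of *H2-T23* at P7d against E18.5d (0.66) were lost. The *H2-Q4* call from P1d to P7d was also lost with no filter, with *Xist* as a covariate (0.26), and without P1d replicate 1 (0.28) or 3 (0.39) or P7d replicate 2 or 3 (0.33 each).

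Of 23 other class II pathway genes, 13 were tested. At P1d against E18.5d, 6 were higher and 4 lower, with a median of 0.22, beside 18.4% and 27.6% of all genes. The lysosomal proteases *Ctss* and *Lgmn*, which process antigen and the invariant chain, rose by 0.63 ± 0.18 (limma, adjusted p = 0.0167) and 0.45 ± 0.08, and *Rfx5*, a subunit of the X box factor, by 0.48 ± 0.08. *Nfya* and *Nfyb*, subunits of the factor that binds the Y box, and *Creb1*, an X2 box factor, fell, with changes of -0.87 ± 0.08, -0.42 ± 0.10 and -0.82 ± 0.06.

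At P7d against P1d, 3 were higher and 6 lower, with a median of -0.19, beside 15.5% and 28.6% of all genes. *Ctss*, *Ctsl* and *Rfxap* fell, with changes of -0.97 ± 0.18, -0.70 ± 0.09 and -0.66 ± 0.16, and *Cd40*, a co-stimulatory receptor, *Nfya* and *Creb1* rose by 0.65 ± 0.18, 0.42 ± 0.08 and 0.37 ± 0.06. At P7d against E18.5d, 2 were higher, *Cd40* (0.78 ± 0.18, adjusted p = 0.00619) and *Lgmn* (0.24 ± 0.08), and 5 lower, with a median of -0.30, where 12.5% of all genes were higher and 36.9% lower. Among the lower genes were *Nfyb* (-0.50 ± 0.10), *Creb1* (-0.46 ± 0.06) and *Nfya* (-0.46 ± 0.08). *H2-DMa*, of the peptide exchanger, was at 0.53 to 1.53 FPKM and below the filter, and *H2-Eb2* was listed at 0 in all hearts. The calls without the 4 *Xist* hearts were *Nfya* and *Creb1* at P1d, *Ctss* from P1d to P7d, and 0 at P7d against E18.5d (limma, with 4 at an unadjusted p under 0.05). With the 3 airway hearts left out 5, 8 and 3 were called in the 3 comparisons, and of the calls named above those of *Rfx5* (0.46) and *Nfyb* (-0.46) at P1d and of *Lgmn* (0.34) and *Nfyb* (-0.52) at P7d against E18.5d were lost.

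The *Lgmn* call at P7d against E18.5d was lost with equal sums (0.20) and without any 1 of E18.5d replicates 1 (0.26) and 3 (0.20) and P7d replicates 1 (0.25), 2 (0.24) and 3 (0.24), and the change was 0.42 with median of ratios scaling and 0.39 after quantile normalization, both called. *Cd40* from P1d to P7d was lost without P7d replicate 3 (0.61). Some calls kept their side while the value moved. *Ctss* at P1d was at 0.41 without E18.5d replicate 3 and 1.08 without the 3 airway hearts, *Rfx5* and *Lgmn* at P1d at 0.31 and 0.28 with equal sums, and *Nfya* and *Creb1* at P7d against E18.5d at -0.28 and -0.29 with median of ratios.

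Markers of immune cells were present beside the members. In bulk tissue, fewer cells of a type and less RNA per cell cannot be told apart. The 6 pan-leukocyte genes were all tested, and 4, 1 and 3 were higher and 0 lower at P1d against E18.5d, P7d against P1d and P7d against E18.5d, where 18.4, 15.5 and 12.5% of all genes were higher and 27.6, 28.6 and 36.9% lower. Their median log2 changes were 0.39, 0.08 and 0.36. The sums were 22, 19.6 and 15.6 FPKM at E18.5d, 23.5, 29.8 and 22.7 at P1d and 25.3, 25.2 and 27.5 at P7d, with *Cd52* the most abundant at 4.95 to 10.8. All P1d and P7d hearts were above all E18.5d hearts on the deposited scale. Of the 6, 0 were called in any comparison without the 4 *Xist* hearts (limma, with 0, 2 and 1 at an unadjusted p under 0.05), and without the 3 airway hearts 0, 1 and 1 (4, 2 and 4).

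Of 14 macrophage genes, 12 were tested. At P1d against E18.5d 7 were higher and 0 lower, at P7d against P1d 2 were higher and 5 lower, and at P7d against E18.5d 3 were higher and 1 lower, with medians of 0.54, -0.34 and 0.15, where 18.4, 15.5 and 12.5% of all genes were higher and 27.6, 28.6 and 36.9% lower. The sums were 104, 103 and 86.9 FPKM at E18.5d, 141, 166 and 110 at P1d and 98.0, 104 and 97.2 at P7d, with *C1qa* the most abundant by the mean of all hearts at 15.9 to 35.2. All P1d hearts were above all others in this sum on the deposited scale, and other scalings of the list sums were not tried. *Lyve1*, a marker of resident macrophages that lymphatic endothelium also expresses, was at 17.7, 16.7 and 15.2 FPKM at E18.5d and 3.41, 4.64 and 4.03 at P7d, and fell from P1d to P7d by a log2 change of -1.95 ± 0.18 (limma, adjusted p = 4.93e-05). The 2 genes higher in that step were *Adgre1* (0.53 ± 0.12, adjusted p = 0.00521) and *Cx3cr1* (0.56 ± 0.14, adjusted p = 0.0121), whose call was lost with *Xist* as a covariate (0.55) and without the 3 airway hearts (0.52). Without *Lyve1*, a gene chosen after its values were seen, the other 13 summed to 86.6, 86.1 and 71.7 FPKM at E18.5d, 121, 143 and 96.4 at P1d and 94.6, 98.9 and 93.1 at P7d. By that sum all P7d hearts were above all E18.5d hearts, and P1d and P7d overlapped. None of these 14 genes was at 0 in all hearts. Of the 12 tested, 0 were called in any comparison without the 4 *Xist* hearts (limma, with 1, 4 and 1 at an unadjusted p under 0.05), and without the 3 airway hearts 3, 4 and 3 were.

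Of 10 dendritic cell genes, 2 were tested, *Zbtb46* and *Irf8*. *Zbtb46*, which endothelial cells also express, was the most abundant at 6.41 to 10.01 FPKM, and *Flt3* and *Xcr1* stayed at or under 0.12. The list summed to 14, 13.7 and 12.9 FPKM at E18.5d, 15, 15.8 and 14.7 at P1d and 16.5, 15.2 and 15.9 at P7d. Without *Zbtb46* the other 9 summed to 7.57, 7.04 and 6.16 FPKM at E18.5d, 6.04, 5.80 and 6.45 at P1d and 7.63, 7.16 and 6.91 at P7d, and the E18.5d hearts overlapped with both other stages. *Irf8* was lower at P1d against E18.5d (log2 change -0.32 ± 0.09, limma, adjusted p = 0.0159) and higher at P7d against P1d (0.39 ± 0.09, adjusted p = 0.00651), while *Zbtb46* was higher at P1d against E18.5d (0.40 ± 0.08) and at P7d against E18.5d (0.34 ± 0.08). The *Irf8* call at P1d was lost with quantile normalization (-0.21) and without E18.5d replicate 1 (-0.28) or 2 (-0.27), and the *Zbtb46* call at P1d with equal sums (0.24). Neither gene was called in any comparison without the 4 *Xist* hearts (with 2, 1 and 0 at an unadjusted p under 0.05), and without the 3 airway hearts only *Irf8* at P7d against P1d was.

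The 7 B cell genes were all below the filter and summed to 0.68, 1.00 and 0.75 FPKM at E18.5d, 1.64, 2.13 and 1.52 at P1d and 2.26, 2.59 and 2.47 at P7d. The stages did not overlap, in the order of the class II sum. *Cd79b* was the most abundant by the mean of all hearts at 0.25 to 1.22 FPKM, and *Pax5* was listed at 0 in all E18.5d hearts. The 4 monocyte genes summed to 4.56, 4.37 and 3.20 FPKM at E18.5d, 6.34, 9.49 and 5.06 at P1d and 2.80, 3.38 and 2.86 at P7d, with all P1d hearts above all others. *Ccr2*, the chemokine receptor of classical monocytes, went the other way, at 0.72, 0.48 and 0.47 FPKM at E18.5d, 0.14, 0.19 and 0.29 at P1d and 0.36, 0.41 and 0.35 at P7d, with all P1d hearts below all others, and was not tested. Only *Plac8*, the most abundant at 1.75 to 7.21, was tested. It was lower at P7d against P1d (log2 change -0.92 ± 0.21, limma, adjusted p = 0.00655), a call lost only without the 4 *Xist* hearts, and higher at P1d against E18.5d (0.61 ± 0.21, adjusted p = 0.0394). The second call was lost with no filter, with *Xist* as a covariate (0.59), without the 4 *Xist* hearts (0.59) or the 3 airway hearts (0.84), and without 6 of the 9 single hearts, E18.5d replicates 2 and 3, P1d replicates 1 and 2 (0.37 without the latter) and P7d replicates 1 and 2. The part of these cell types in the results on the members was not tested.

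Markers of other cell types were summed in the same way. The 8 T cell genes summed to 0.97 to 1.47 FPKM in E18.5d hearts and 1.66 to 1.94 in P1d hearts. In P7d hearts their sum was 1.45 to 2.11 FPKM, overlapping with both other stages. *Lck* was at 0.28 to 1.26 over all hearts. *Cd4* was at 0.36 to 0.52 in P7d hearts against at most 0.27 in the others, unlike the sum of its list. The 5 NK cell genes summed to 0.04 to 0.60, most abundant by the mean *Gzma*. The 6 thymocyte genes summed to 0.01 to 0.06 in E18.5d and P1d hearts and 0.20 to 0.30 in P7d hearts. Of these *Cd8b1* was the most abundant in P7d hearts, at 0.14, 0.23 and 0.13 FPKM, was listed at 0 in all E18.5d and P1d hearts, and was not tested. *Ptcra* was listed at 0 in all hearts. Of the 5 thymic epithelium genes only *Ccl25* was above 1 FPKM, at 2.69 to 7.38, while *Foxn1* was at most 0.01. *Ccl25* was lower at P7d against E18.5d (log2 change -0.57 ± 0.17, limma, adjusted p = 0.0210), a call lost with no filter, median of ratios (-0.42), quantile normalization (-0.42), without E18.5d replicate 2 (-0.44) or P7d replicate 2 (-0.39), without the 4 *Xist* hearts (-0.74) and without the 3 airway hearts (-0.48). The 8 endothelial genes, all tested, summed to 872 ± 13.2 FPKM in E18.5d hearts, 1155 ± 79.0 in P1d hearts and 1077 ± 56.2 in P7d hearts, with *Fabp4* the most abundant by the mean of all hearts at 247 to 614 and *Cav1* above it in E18.5d replicates 2 and 3, and 3, 2 and 5 were higher and 2, 2 and 1 lower in the 3 comparisons, with medians of 0.12, -0.09 and 0.40, where 18.4, 15.5 and 12.5% of all genes were higher and 27.6, 28.6 and 36.9% lower. The calls were 1, 1 and 0 without the 4 *Xist* hearts (limma, with 4, 3 and 4 at an unadjusted p under 0.05), and 3, 3 and 6 without the 3 airway hearts.

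The 8 cardiomyocyte genes, all tested, summed to 18567 to 19263 FPKM in E18.5d hearts, 21892 to 24373 in P1d hearts and 23105 to 24186 in P7d hearts, with *Actc1* the most abundant by the mean of all hearts at 5904 to 7872. *Myh6*, the adult myosin heavy chain, was above it in every P7d heart and in P1d replicates 1 and 2. In the summed levels all P1d and P7d hearts were above all E18.5d hearts on the deposited scale. In the 3 comparisons 4, 2 and 5 were higher and 0, 2 and 2 lower, with medians of 0.26, 0.04 and 0.40, beside the same shares of all genes. The calls were 2, 0 and 0 without the 4 *Xist* hearts (limma, with 3, 2 and 5 at an unadjusted p under 0.05), and 4, 2 and 5 without the 3 airway hearts. The part of these lists in the changes of the members was not tested.

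**Figure D2:**
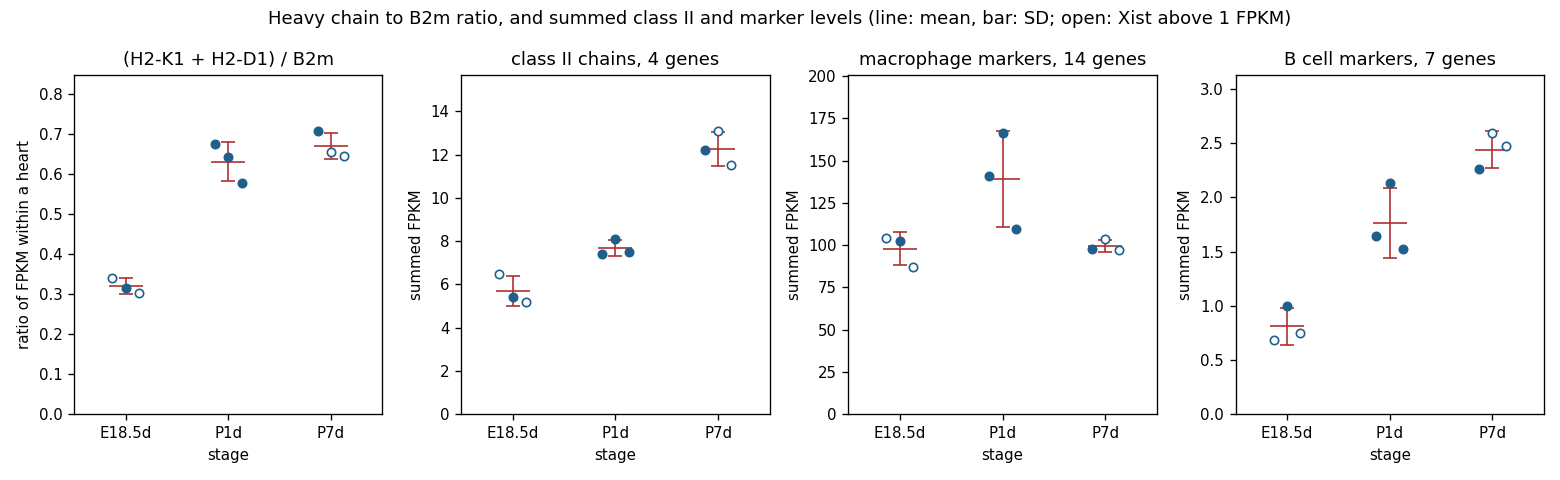
By stage (horizontal axis), the ratio of *H2-K1* plus *H2-D1* to *B2m* within each heart, and the summed FPKM (vertical axes, from 0) of the 4 class II genes, the 14 macrophage markers and the 7 B cell markers; points are hearts, lines means and bars SD, n = 3, with open points for the 4 hearts with *Xist* above 1 FPKM. The ratio is 0.303 to 0.341 in E18.5d hearts and 0.578 to 0.708 in later hearts, the class II and B cell sums are highest at P7d, and the macrophage sum is highest at P1d on the deposited scale.

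The genes whose pattern over the 9 hearts was most like the mean log2 level of *B2m*, *H2-K1* and *H2-D1* were *Ppp2r1a* (Pearson r = 0.968), *Clptm1* (0.967), *Tbc1d7* (0.967), *Cryl1* (0.965) and *Vps51* (0.962). For *Cd74*, *H2-Aa*, *H2-Ab1* and *H2-Eb1* they were *Chpt1* (r = 0.996), *Nnt* (0.995), *Me3* (0.993), *Mb* (0.992) and *Pfkm* (0.989). *Mb*, myoglobin, was at a mean of 1664 FPKM in E18.5d hearts, 2476 in P1d hearts and 4865 in P7d hearts. The 9 hearts share 3 stages, and with so many genes some high values are found for any pattern.

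The promoters of the members were also looked at. RefSeq starts (GRCm38.p6) were found for 6 of the 10 members, *B2m*, *H2-K1*, *H2-D1*, *Tap1*, *H2-Aa* and *H2-Eb1*, with 7 starts in all, since *H2-K1* had 2. They were missing for *Tap2*, *Cd74*, *H2-Ab1* and *Ciita*. The 250 bases before each start were searched on both strands for the cores of elements known from MHC promoters. These were the Y box ATTGG (33.8% of the 32851 promoters in the table held it), X1 box GCAACNG (10.2%), X2 box TGANGTCA (7.49%), the interferon-stimulated response element, GAAA and GAAA with 2 bases between them (2.98%), the gamma-activated site TTCNNNGAA (7.02%), an NF-kB core, GGG and CC with 5 bases between them (45.8%) and the E-box CACGTG (6.02%). The NF-kB core reads alike on both strands in part, so that 1 place can match on both.

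All 6 members had the Y box letters, and all 6 the NF-kB core. The X2 letters were in *H2-K1* and *H2-D1* as TGAGGTCA and in *H2-Aa* as TGACGTCA, the X1 letters in *H2-Eb1* and the interferon-stimulated letters in *B2m*. In *H2-Aa* the X2 letters began 74 bases before the start and the Y box letters 48. They lay farther from the Y box letters in *H2-K1* (140 and 16) and *H2-D1* (200 and 76). Whether the letters in *H2-K1* and *H2-D1* are an X2 box was not tested. In *H2-K1* and *H2-D1* the NF-kB core matched at GGGGATTCCC. The gamma-activated site and the E-box matched in none of the 6. A match only says that the letters are there. A missing match does not say that an element is absent, since forms that differ from these letters were not searched for.

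The 180 bases before the start are given 5′ to 3′ on the gene's strand for 2 class I and 2 class II members, with the Y, X1, X2 and interferon-stimulated letters in capitals. They lie upstream of the RefSeq start at chr2:122147507-122147686 (plus strand), chr17:34000348-34000527 (minus strand), chr17:34287824-34288003 (minus strand) and chr17:34305687-34305866 (plus strand). For *B2m* the last of these bases is the first base of the gene as placed by GENCODE M21.
*B2m*: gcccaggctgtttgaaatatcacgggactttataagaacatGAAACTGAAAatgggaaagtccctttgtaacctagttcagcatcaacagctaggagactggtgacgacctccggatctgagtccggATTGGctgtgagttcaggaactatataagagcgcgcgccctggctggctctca
*H2-K1*: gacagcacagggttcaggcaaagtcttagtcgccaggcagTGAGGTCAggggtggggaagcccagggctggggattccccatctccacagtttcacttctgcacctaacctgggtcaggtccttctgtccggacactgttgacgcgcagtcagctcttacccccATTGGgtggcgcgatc
*H2-Aa*: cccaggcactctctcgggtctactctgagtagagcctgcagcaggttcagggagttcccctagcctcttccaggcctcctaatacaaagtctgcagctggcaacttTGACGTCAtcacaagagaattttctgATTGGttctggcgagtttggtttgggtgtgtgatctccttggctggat
*H2-Eb1*: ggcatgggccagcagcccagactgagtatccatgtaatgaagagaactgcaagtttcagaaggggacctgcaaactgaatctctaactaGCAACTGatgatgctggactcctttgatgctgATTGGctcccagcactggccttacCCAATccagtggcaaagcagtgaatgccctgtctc
The Y box letters of *B2m* begin 53 bases before the start, those of *H2-K1* 16, those of *H2-Aa* 48 and those of *H2-Eb1* 59. The *H2-Aa* stretch holds the X2 letters 74 bases before the start, *H2-Eb1* the X1 letters at 91 and a Y box match on the opposite strand at 35. *B2m* has the interferon-stimulated letters at 139, and *H2-K1* the X2 letters at 140. The *H2-K1* distances are from 1 of its 2 starts. From the other, the Y box letters begin at 30, with a match on the opposite strand at 6, and the X2 letters at 154.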

How the data were processed

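RNA-seq of 9 hearts, 3 per stage, was analysed from 1 table with 48820 genes. Its values are FPKM as deposited, given to 2 decimals. The submitters' processing notes name STAR and GRCm38 (mm10), and the counting tool, annotation and strand setting are not given in the sources used here. Members and lists were chosen with earlier results of these data known. All members are named. Of the pathway lists, the text names up to 3 genes per direction and comparison that passed with hearts that did not overlap. It also names *H2-Ea*, *Nlrc5*, *H2-DMa* and the other pathway genes at 0 in all hearts. Of marker lists it names the most abundant gene and genes at 0. Other markers, *H2-T24* and *Mr1* were named after their values were seen. The values of 2 listed genes are not reported here.

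The log2(FPKM + 1) values of the 13618 genes averaging 1 FPKM or more were tested in 1 model of all stages, using lmFit, then contrasts.fit, then eBayes (trend on) from limma 3.58.1 under R 4.3.3. Benjamini-Hochberg adjustment ran over all genes, with 0.05 as the threshold. The script was tested on simulated data. Alternatives were a pseudocount of 0.1, no filter, median of ratios, quantile normalization, equal sums (TPM), the replicate number as a block, *Xist* above 1 FPKM as a covariate, and leaving out the 4 *Xist* hearts or each heart in turn. Leaving out the 3 hearts whose lung epithelium genes sum to more than 10 FPKM was chosen after seeing the data. Positions are from GENCODE M21, and 50-base matches used its transcripts. Python 3.11.15, numpy 2.4.6, pandas 2.3.3, scipy 1.17.1 and matplotlib 3.10.9 were used.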

Additional observations from a re-analysis of the deposited data

How the results depend on the processing

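With 3 hearts a stage, calls near the threshold turned on single hearts, and FPKM without counts do not let counting error be modelled apart from the spread between hearts. In each series of counts below, the order is P1d against E18.5d, P7d against P1d and P7d against E18.5d. The cause of a change was not tested. Where hearts were left out, having fewer hearts and what those hearts carried cannot be told apart. A pseudocount of 0.1 left the members, the named pathway genes and 7 named marker genes on their side of the threshold.

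Median of ratios gave 4 members higher at P7d against P1d and 0 lower at P7d against E18.5d, and quantile normalization also gave 0 lower there. Equal sums gave 1 member lower at P1d against E18.5d and called 3787 genes at P7d against P1d. With *Xist* as a covariate, 3905 genes and 5 other class I pathway genes were called at P7d against P1d.

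Without the 4 *Xist* hearts, members higher were 2, 0 and 0, members lower at P7d against E18.5d 0, all genes called 823, 179 and 194, other class I pathway genes 3, 0 and 0, other heavy chains 1, 0 and 0, and other class II pathway genes 2, 1 and 0. Without the 3 airway hearts, 1 member was higher and 1 lower at P7d against P1d, and 0 were lower at P7d against E18.5d. All genes called were then 2471, 3982 and 3252, other class I pathway genes 5, 5 and 5, other heavy chains at P7d against E18.5d 2, and other class II pathway genes 5 at P1d and 3 at P7d, both against E18.5d.

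Leaving out each heart in turn, members higher ranged over 4 to 5, 2 to 3 and 6 to 8, and members lower over 0 to 0, 0 to 1 and 0 to 1. All genes called ranged over 5135 to 6326, 4827 to 5878 and 5526 to 7165, other class I pathway genes over 7 to 11, 5 to 8 and 8 to 12, other heavy chains over 6 to 6, 3 to 5 and 4 to 7, and other class II pathway genes over 8 to 10, 7 to 10 and 4 to 8.

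Changes that turned direction were all short of the threshold under that alternative. At P1d against E18.5d, *B2m* was at 0.078 and *H2-Ab1* at 0.0047 without the 3 airway hearts, *Psme1* at -0.16 with equal sums and *Cd40* at -0.11 without the 4 *Xist* hearts. *Cd40* there was at 0.13 with all hearts and at 0.57 without the 3 airway hearts. Its change at P7d against E18.5d was 0.78 with all hearts and 0.46 without the 4 *Xist* hearts. At P7d against P1d, *Ifngr1* was at 0.051, 0.056 and 0.068, and *Pdia3* at 0.086, 0.097 and 0.10, with median of ratios, quantile normalization and equal sums, and *Nfyb* at 0.018 with median of ratios and 0.032 with equal sums. *Ctss* at P7d against E18.5d was at 0.093 without the 3 airway hearts. It was at -0.35 with all hearts, and at -0.57 and called lower without E18.5d replicate 3 (limma, adjusted p = 0.007). *H2-T24* from P1d to P7d was at 0.054 with median of ratios, 0.064 with quantile normalization, 0.056 with equal sums, 0.084 without the 4 *Xist* hearts and 0.031 without the 3 airway hearts, and *Zbtb46* there at 0.041, 0.0097 and 0.056 with the same 3 scalings. *H2-T24* at P7d against E18.5d was at 0.035 without the 4 *Xist* hearts. *Mr1* was at -0.023 at P1d and -0.16 at P7d, both against E18.5d, without the 3 airway hearts, and at -0.024 at P7d with equal sums. *Lyve1* at P1d against E18.5d was at -0.021 with equal sums and *Cx3cr1* at 0.019 without the 4 *Xist* hearts. Leaving out single hearts, the ranges were -0.24 to 0.00052 for *B2m* and -0.025 to 0.072 for *Psme1* at P1d against E18.5d, -0.020 to 0.36 for *Lyve1* (adjusted p = 0.0345 at the upper end, without P1d replicate 3) and -0.26 to 0.00064 for *Cx3cr1* there, -0.065 to 0.069 for *H2-T24*, -0.12 to 0.0069 for *Zbtb46*, -0.24 to 0.034 for *H2-K1*, -0.068 to 0.022 for *Pdia3* and -0.16 to 0.027 for *Nfyb* at P7d against P1d, and -0.079 to 0.099 for *Mr1* and -0.0051 to 0.11 for *Irf8* at P7d against E18.5d.

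The replicate numbers did not pair the hearts, since deviations of the 9 pairs of hearts with the same number correlated at -0.055 to 0.112. With the number as a block, 1 member was lower at P7d against P1d, *B2m* (adjusted p = 0.0494 in a range of 0.0176 to 0.293), 5, 2 and 8 were higher, and 6173, 5857 and 6667 genes were called.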
